A study of Caenorhabditis elegans with 2 samples.

Results

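The UDP-glucuronosyltransferase genes of Caenorhabditis elegans, named ugt and a number, were examined for binding of the transcription factor SKN-1. They were taken as every protein-coding gene of that name in the Ensembl annotation of the WBcel235 assembly, called ce11 in the deposited lists. This gave 67 of the 19973 protein-coding genes on the 6 nuclear chromosomes. Binding was mapped by ChIP-seq in whole L1 larvae of both sexes pooled, in 1 group of 2 biological replicates. The worms were of strain OP178, with the genotype unc-119(ed3) III and wgIs178, an inserted transgene that carries skn-1 tagged with eGFP, and all of them carried both. The antibody entry of the labels names skn-1. No untagged strain, second stage or treatment was analysed here, so whether a region was specific to SKN-1 was not tested. Whole animals were used, so a site bound in few cells cannot be told apart from one bound weakly in many.

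UDP-glucuronosyltransferases join a sugar from a UDP-sugar donor to small lipophilic molecules, which makes them more soluble and easier to excrete. This is the conjugation step of detoxification, as is the glutathione transfer done by glutathione S-transferases, and in worms much of it takes place in the intestine. SKN-1, the counterpart of mammalian Nrf factors, is known for activating genes of this step under oxidative or xenobiotic stress, and the larvae here carried no label of such a treatment.

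Of the 67 genes, 4 had a region in the promoter that the submitters retained in their final list. In order of position these were ugt-58 on chromosome II, ugt-20 on IV, and ugt-64 and ugt-13 on V. That list, whose regions are called optimal peaks here, held 3484 regions, which were exactly the 3484 regions with the highest signal value among the 27729 of a list called on both replicates pooled. The pooled list is named by the submitters as holding background as well as peaks. A region counted for a gene when its summit fell in a promoter window, defined as the bases from 1000 bp before any transcript start of the gene to 200 bp after it. The share of ugt genes with an optimal peak was 5.97% (Wilson 95% interval 2.35 to 14.4), and over all protein-coding genes it was 15.1%. With any pooled region counted, 31 ugt genes (46.3%, interval 34.9 to 58.1) had one, beside 44.7% over all genes. Among genes with a pooled region, 4 of 31 ugt genes (12.9%) reached the optimal list, beside 33.7% over all genes. Intervals cover counting error only, and no test was made, since neighbouring genes share promoters and descent.

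The 4 sites with an optimal peak are printed as the 151 bp centred on the summit, because they are the only optimal peaks of the family. Bases are from the WBcel235 genome, 5′ to 3′ on the strand of the gene. At ugt-58, ugt-13 and ugt-20 the gene's start lies to the right of the window, and at ugt-64 the window lies inside the gene, between annotated starts. Capitals mark the letters TGTCAT and TATCAT (cores of the SKN-1 site), TGATAA (the site of intestinal GATA factors) and CTGCGTCT, each on either strand. The AP-1 type site TGACTCA was also searched and was in none of the 4. TTATCAT holds both TATCAT and, on the other strand, TGATAA. The motif CTGCGTCT was added after these sequences had been seen.
ugt-58, chrII:9586963-9587113 (minus strand): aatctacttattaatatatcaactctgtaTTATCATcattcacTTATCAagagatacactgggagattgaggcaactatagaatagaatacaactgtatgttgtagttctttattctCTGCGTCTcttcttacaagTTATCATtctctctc
ugt-13, chrV:4908637-4908787 (plus strand): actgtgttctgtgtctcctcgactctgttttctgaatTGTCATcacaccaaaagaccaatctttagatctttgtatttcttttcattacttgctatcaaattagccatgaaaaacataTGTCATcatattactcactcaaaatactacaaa
ugt-20, chrIV:6083749-6083899 (minus strand): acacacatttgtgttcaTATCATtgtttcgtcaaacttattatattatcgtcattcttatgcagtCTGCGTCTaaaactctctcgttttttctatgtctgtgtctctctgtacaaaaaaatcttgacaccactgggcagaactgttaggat
ugt-64, chrV:3505857-3506007 (minus strand): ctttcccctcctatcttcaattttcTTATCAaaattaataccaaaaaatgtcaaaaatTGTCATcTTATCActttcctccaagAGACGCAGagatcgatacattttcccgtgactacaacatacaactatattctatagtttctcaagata

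Each of the 4 windows held a SKN-1 core. TGTCAT lay in those of ugt-13, which had a pair of matches, and ugt-64, where the match began 17 bp to the left of the summit. TATCAT lay in those of ugt-58 (a pair) and ugt-20. At least 1 of these cores was in 16.4% of the windows of all 3484 optimal peaks and in 17.2% of the 24245 pooled regions outside the optimal list, with intervals of 15.2 to 17.7 and 16.7 to 17.7 that overlap. Taken apart, the cores went opposite ways. TGTCAT was in 11.1% of the optimal peaks (interval 10.1 to 12.2) and 8.15% of the other regions (7.81 to 8.50). TATCAT was in 6.46% (5.69 to 7.32) and 9.97% (9.60 to 10.4). TGATAA was in the windows of ugt-58 and ugt-64, beside 8.47% of all optimal peaks and 15.2% of the other pooled regions. CTGCGTCT was in those of ugt-58, ugt-20 and ugt-64. That motif was added after these windows had been seen, so its count among them is not a test. It was in 12.8% of all optimal peaks, 2.34% of the other pooled regions and 3.54% of the longer 300 bp promoters of all genes. A match is a description of the sequence and not a binding site.

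The strongest of the 4 was at ugt-58 (WBGene00009450), a gene on chromosome II with no other ugt gene on that chromosome. Its peak ran from 9586890 to 9587185 with the summit 254 bp upstream of the only annotated start, outside any gene. It ranked 1636 in the optimal list, with a signal value of 60.8 as deposited. In replicate 1 the strongest region of the window ranked 1998 of 30000 with a signal value of 23.5, and in replicate 2 it ranked 1662 of 30000 with 35.7. The replicate summits lay 1 and 2 bp from the pooled summit, the closest placement of both replicates among the 4. Signal values rank regions within a list and are not on one scale between lists.

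The peak of ugt-13 (WBGene00019232), a gene on an unchecked list of reported SKN-1 targets, ran from 4908564 to 4908859 of chromosome V, 172 bp upstream of the start. It ranked 1665 with a signal value of 60.0, and the replicates differed more here, at rank 3004 (signal 17.1) in replicate 1 and rank 1510 (signal 37.9) in replicate 2. Replicate 1's rank was the weakest of the 8 replicate ranks at these genes. The summit lay in the 579 bp between ugt-14 and ugt-13 and in no other gene's promoter window.

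At ugt-20 (WBGene00019516), on chromosome IV from 6083676 to 6083971, the summit lay 224 bp upstream of the start and the peak ranked 2020 with a signal value of 52.2. Replicate 1 ranked it 2830 (signal 18.0) and replicate 2 ranked it 2013 (signal 31.3). Replicate 1 placed the summit 126 bp from the pooled one, and this was the only one of the 4 without both replicate summits within 100 bp.

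The peak of ugt-64 (WBGene00015577), on chromosome V from 3505784 to 3506079, lay inside the gene. This gene has 4 annotated starts, and the summit was in an intron, 420 bp inside the outermost start and 236 bp upstream of the nearest internal one. It ranked 2077 with a signal value of 51.2, at rank 2384 (signal 20.4) in replicate 1 and rank 2066 (signal 30.8) in replicate 2. A second pooled region in the window, 186 bp downstream of another start, ranked 24774 with a signal value of 9.24.

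All 4 peaks stood near the middle of the optimal list. Their ranks of 1636 to 2077 had a median of 1842, and the median over all genes with an optimal peak was 1447. Their signal values of 51.2 to 60.8 lay on both sides of the median of 58.1 over all optimal peaks, whose strongest reached 1810. None of the 4 lay in a promoter window of another protein-coding gene, so giving each peak only to the nearest start could not move them. No ugt gene had an optimal peak inside the gene outside its promoter windows. In the pooled list, whose 27729 regions include the 3484 optimal peaks, 19 ugt genes had such a region. It could lie in the window of a neighbour, as the pooled region of ugt-27 lay inside ugt-26. These counts were not made over all genes.

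**Figure D1:**
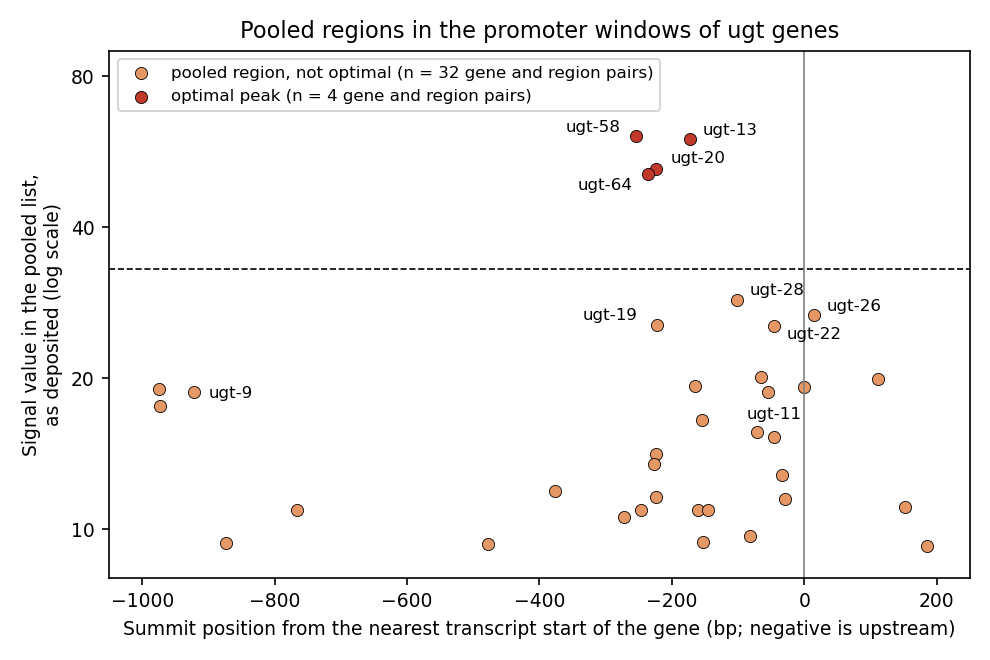
Each point is 1 pooled region in the promoter window of 1 ugt gene, placed by the distance of its summit from the nearest transcript start of that gene in bp (x axis, negative is upstream) and by the deposited signal value (y axis, log scale). Red points are optimal peaks, orange points other pooled regions, and the dashed line is the signal value of the weakest optimal peak of the whole list, 33.0. The 4 optimal peaks sit 172 to 254 bp upstream and the strongest other region, at ugt-28, is at 28.7.

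The other 27 ugt genes with a pooled region had lower-ranked regions. The weakest optimal peak of the whole list ranked 3484 with a signal value of 33.0, and the next region ranked 3485 with the same value to this precision. The strongest non-optimal region at a ugt gene, that of ugt-28, ranked 4079 with a signal value of 28.7, and the weakest optimal peak at a ugt gene was 1.78 times as high. The median rank of the strongest region was 9761 over these 27 genes, from 4079 to 24071, with a median signal value of 15.3. Over all 31 ugt genes with a region the median rank was 8517, beside 7120 over all genes with a pooled region. The strongest regions of these 27 genes had summits from 974 bp upstream to 152 bp downstream, beside 172 to 254 bp upstream for the 4 optimal peaks. A range widens with the number of sites, so the 2 ranges cannot be compared. Over all genes with an optimal peak the median offset was -222 bp (negative is upstream). For the strongest region of each of the 27 genes, 23 summits lay upstream of the start, 18 of them within 300 bp, and 4 lay at the start or downstream. Most of the window, from 1000 bp upstream to 200 bp downstream, is upstream. These counts were not made over all genes, so they are not read as a trait of the family.

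The 10 strongest of these weaker regions were at ugt-28, ugt-26, ugt-19, ugt-22, ugt-31, ugt-46, ugt-2, ugt-24, ugt-18 and ugt-11, at pooled ranks 4079 to 6932. At 4 of them a single replicate had a region among its own 3484 strongest, and the other did not. Ranks given for a replicate are those of its strongest region in the window, which need not share the pooled summit. For ugt-28 that was replicate 1, with rank 3118 beside 6453 in replicate 2. For ugt-26 it was replicate 2, with rank 2908 beside 25633 in replicate 1. For ugt-22 it was also replicate 2, with rank 3185 beside 28552, and for ugt-31 again replicate 2, with rank 3062 beside 13654. The regions of ugt-31 lay also in the promoter window of Y39G10AR.16. Of the 35 distinct pooled regions at ugt genes, 8 lay also in a window of a gene outside the family, a count not made over all genes. At ugt-19 replicate 1 was the stronger, at rank 3617 beside 17366, and at ugt-24 the replicates were closer, at ranks 4736 and 7011. For ugt-2 replicate 2 held a region at rank 4547 and replicate 1 held none. The strongest region of ugt-18 lay 974 bp upstream, in an exon of the neighbouring gene ZC443.4, and ranked 6847. Replicate 1 ranked its strongest region there 4445, with a summit 992 bp upstream, and replicate 2 had a summit 46 bp from the pooled one at rank 11727, past the edge of the window. Inside the window the strongest region of replicate 2 ranked 24657, with a summit 267 bp upstream. The region of ugt-46, near the left end of the X chromosome, lay in the gene's own exon, 111 bp downstream of the start. Replicate 2 had a summit 145 bp downstream (rank 8452), whereas the strongest region of replicate 1 (rank 6508) lay 949 bp upstream. The first 3 Mb of X held 470 pooled regions per Mb and the rest of X 304, and the part of that density in the region at ugt-46 was not tested.

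Some of these weaker sites are printed for contrast with the optimal ones: ugt-19, the neighbour of ugt-20, ugt-22, and the site between ugt-11 and ugt-9. They are written on the strand of the named gene, with the same motifs in capitals.
ugt-19, chrIV:6080099-6080249 (minus strand): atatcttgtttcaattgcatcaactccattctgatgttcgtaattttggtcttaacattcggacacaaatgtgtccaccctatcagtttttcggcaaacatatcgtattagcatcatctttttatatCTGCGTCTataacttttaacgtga
ugt-22, chrIV:13639139-13639289 (plus strand): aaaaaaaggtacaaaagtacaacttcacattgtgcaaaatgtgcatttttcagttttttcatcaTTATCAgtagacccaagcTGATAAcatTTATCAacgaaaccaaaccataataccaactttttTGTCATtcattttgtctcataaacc
ugt-11, chrV:4895051-4895201 (minus strand): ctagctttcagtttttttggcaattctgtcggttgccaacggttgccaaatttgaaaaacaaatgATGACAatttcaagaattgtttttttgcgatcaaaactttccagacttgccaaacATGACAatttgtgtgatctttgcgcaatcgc

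The window of ugt-19 held CTGCGTCT, as did that of ugt-20, but no SKN-1 core. The window of ugt-22 held TGTCAT and 3 matches to TGATAA. That of ugt-11 held TGTCAT on the opposite strand at a pair of places, the nearer one starting 10 bp to the left of the summit. Over the 31 distinct weaker regions at ugt genes, 9 held a SKN-1 core (29.0%, interval 16.1 to 46.6), 9 held TGATAA and 2 held CTGCGTCT. TGTCAT was in 3 of these 31 regions, those of ugt-22 and ugt-11 among them, and neither gene had an optimal peak.

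Both replicates had a region among their 3484 strongest at the 4 genes with an optimal peak. Among replicate 1's 3484 strongest regions, 5 ugt genes were represented (7.46%, beside 14.1% of all genes), and among those of replicate 2, 7 (10.4%, beside 14.9%). The 4 genes with an optimal peak were in both, and were the only ugt genes in both. The share of all genes in both was not counted. In the full lists of 30000, replicate 1 had a region at 25 ugt genes (37.3%, beside 45.8% of all genes) and replicate 2 at 34 (50.7%, beside 46.2%), with 22 in both (32.8%, beside 32.5%). A region in replicate 2 alone was found at 12 ugt genes (17.9%, beside 13.7% of all genes) and in replicate 1 alone at 3 (4.48%, beside 13.3%). Of the 31 distinct weaker regions, 6 had a summit of both full replicate lists within 100 bp, as did 3 of the 4 optimal peaks. The same was not counted over all regions of either list, so whether these counts are unusual is not known. The optimal list was thresholded by the submitters on the irreproducible discovery rate, a measure of agreement between these replicates, so this agreement is no separate evidence.

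**Figure D2:**
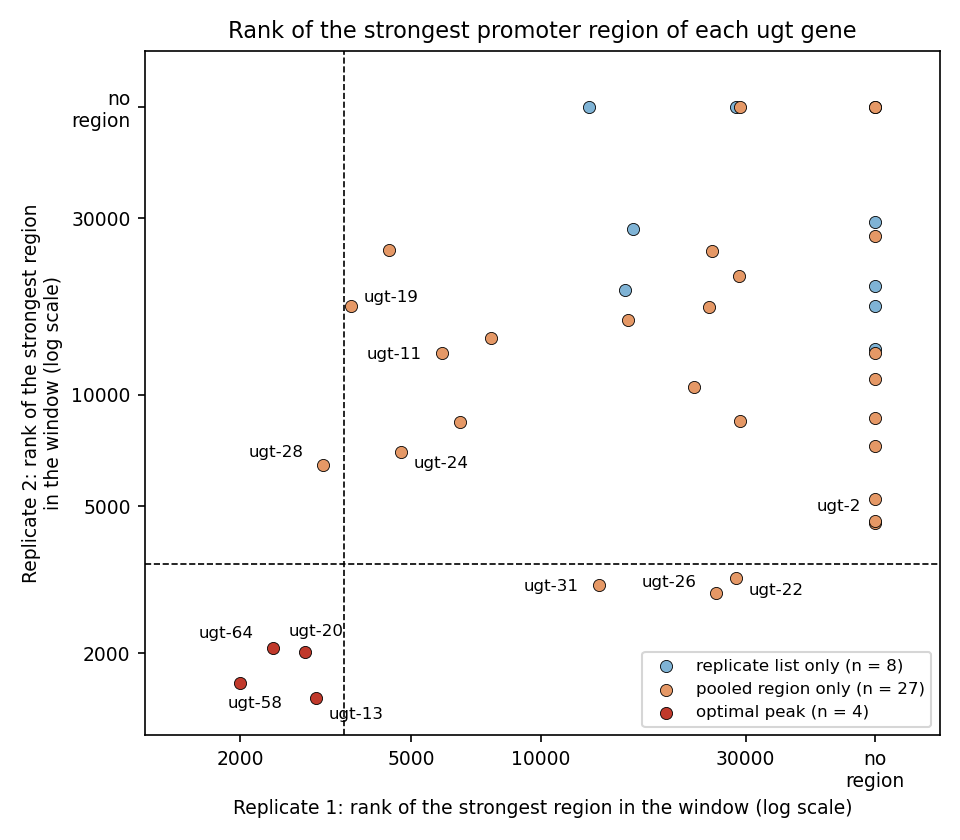
Each point is a ugt gene, placed by the rank of the strongest region of its promoter window in replicate 1 (x axis) and in replicate 2 (y axis), both on log scales, with genes lacking a region in a list at the outer edge and the 28 genes with no region in any list left out. Dashed lines mark rank 3484; the 4 genes with an optimal peak (red) are the only ones below it in both replicates, while ugt-28, ugt-26, ugt-22 and ugt-31 are below it in 1 replicate.

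Clustered and single genes were set side by side, with no test. With a gap of at most 10 kb to another ugt gene taken as clustered, 37 genes fell into 11 clusters and 30 stood alone. Optimal peaks were at 2 of the 37 clustered genes (5.41%, interval 1.5 to 17.7), ugt-13 and ugt-20, and at 2 of the 30 single ones (6.67%, interval 1.85 to 21.3), ugt-58 and ugt-64. Pooled regions were at 15 clustered genes (40.5%, interval 26.3 to 56.5) and 16 single ones (53.3%, interval 36.1 to 69.8). The median rank of the strongest pooled region was 6932 over the 15 and 10576 over the 16. The median distance to the next coding gene upstream was 799 bp for clustered and 926 bp for single genes, and a median of 20.1% and 7.44%, respectively, of the 1000 bp upstream lay inside another coding gene. Of the 14 clustered genes with under 500 bp upstream, 4 had a pooled region, and of the other 23, 11 had one. This split was not made for single ugt genes or for all genes, so a link to upstream space was not tested.

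The largest cluster held 8 genes over 24235 bp of chromosome V, from 4887165 to 4911399, in the order ugt-12, ugt-11, ugt-9, ugt-10, ugt-67, ugt-8, ugt-14 and ugt-13. It contains the 3 ugt genes named as reported SKN-1 targets in a list taken from an earlier analysis of these data, which was not checked against the literature. Of these, ugt-13 at one end had its optimal peak. The other pair, ugt-11 and ugt-9, point away from each other across 976 bp and had 1 pooled region in common, from 4894978 to 4895273, at rank 6932 with a signal value of 18.8. Its summit lay 55 bp upstream of ugt-11 and 922 bp upstream of ugt-9. In replicate 1 the strongest region at ugt-11 ranked 5885, with a summit 83 bp downstream of the start, and no region lay in the window of ugt-9. In replicate 2 the shared region ranked 12997. Within the cluster, ugt-12 and ugt-8 had pooled regions at ranks 16719 and 18408, and ugt-10, ugt-67 and ugt-14 had no region in any list. The strongest pooled region thus ranged from rank 1665 at ugt-13 to none at 3 genes of the same cluster.

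The 6-gene cluster of chromosome V, ugt-40, ugt-37, ugt-38, ugt-39, ugt-41 and ugt-36, from 7139475 to 7169281, held regions at 2 of its genes. A pooled region lay at ugt-39, at rank 22675, and ugt-38 had a region in replicate 2's list alone, at rank 17347. The nearest optimal summits to these genes were 29620 to 54665 bp away. A 4-gene cluster of chromosome V (ugt-5, ugt-4, ugt-6 and ugt-3) had 1 pooled region, at ugt-4, at rank 13555. In the 4-gene cluster of chromosome I (ugt-26, ugt-27, ugt-28 and ugt-25) all 4 genes had a pooled region, at ranks 4079 to 23844, and none reached the optimal list. The region of ugt-27, at rank 23844, had its summit inside ugt-26.

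**Figure D3:**
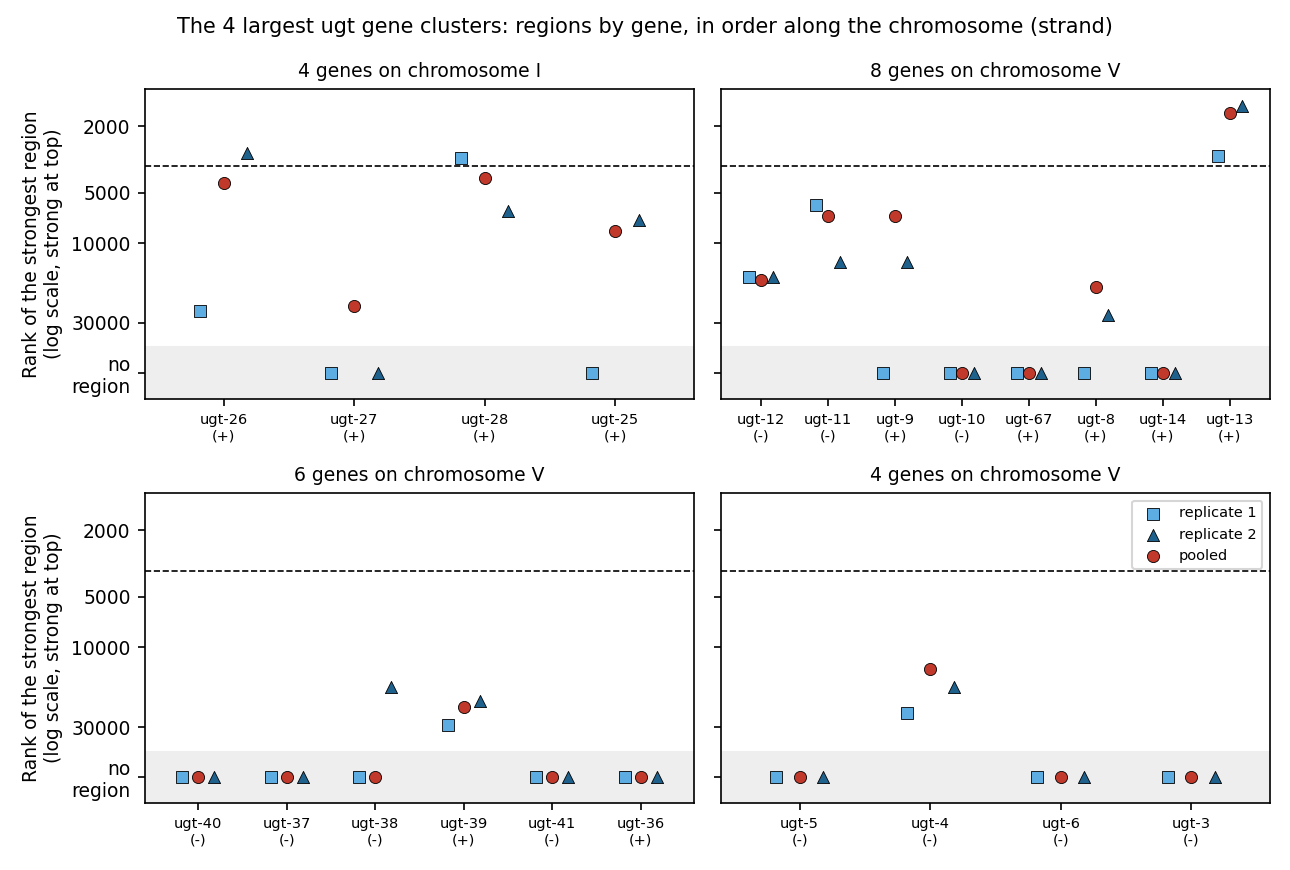
For the 4 ugt clusters with at least 4 genes, genes are in order along the chromosome (x axis, strand in brackets) and points give the rank of the strongest region in the promoter window (y axis, log scale, strong at the top) in the pooled list (circles), replicate 1 (squares) and replicate 2 (triangles), with no region in the grey band. The dashed line marks rank 3484; of these 22 genes ugt-13 alone is above it in all 3 lists.

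No region of any of the 4 lists lay in the promoter window of 28 ugt genes. These were ugt-60, ugt-21, ugt-59, ugt-43, ugt-44, ugt-65, ugt-53, ugt-10, ugt-67, ugt-14, ugt-63, ugt-40, ugt-37, ugt-41, ugt-36, ugt-17, ugt-49, ugt-1, ugt-35, ugt-55, ugt-5, ugt-6, ugt-3, ugt-16, ugt-15, ugt-30, ugt-57 and ugt-23. Another 8 (ugt-62, ugt-29, ugt-32, ugt-51, ugt-38, ugt-47, ugt-34 and ugt-56) had regions of a replicate list but none of the pooled list, at ranks of 12934 and beyond. The counts of 28 and 8 were not made over all genes, of which 44.7% had a pooled region, so they are not read as a trait of the family. The remaining pooled-only genes, beyond the 10 strongest and ugt-9, were ugt-25, ugt-33, ugt-61, ugt-42, ugt-4, ugt-45, ugt-52, ugt-12, ugt-54, ugt-48, ugt-8, ugt-66, ugt-50, ugt-39, ugt-27 and ugt-7, at ranks 8517 to 24071. Of these, ugt-27 and ugt-54 had no region of either replicate's list in the window, although replicate 2 had a summit 86 bp from the pooled summit of ugt-54, at rank 25734, outside the window.

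Reads from sequence found at several places may not have been placed, and this could be checked for each promoter. Over words of 36 bases, 41 ugt windows were wholly unique, and 8 (11.9%) were under 90% unique, beside 13.4% of all genes. The 8 were ugt-3 (72.7%), ugt-10 (76.4%), ugt-48 (77.0%), ugt-64 (77.6%), ugt-30 (79.6%), ugt-20 (83.7%), ugt-67 (85.8%) and ugt-59 (87.6%). Of these, ugt-64 and ugt-20 had an optimal peak, and the 151 bp about each of their summits were wholly unique. A missing region cannot be told apart from unplaced reads in the repeated parts of ugt-3, ugt-10, ugt-30, ugt-67 and ugt-59, which had none. The other 23 genes without a region in any list were at least 90% unique.

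Most ugt genes lie on chromosome V, which holds 42 of the 67 (62.7%) and 25.0% of all protein-coding genes. On that chromosome 2 of 42 ugt genes (4.76%) had an optimal peak, beside 10.4% of all its genes, and 15 (35.7%) had a pooled region, beside 36.2%. Both shares over all genes of chromosome V were lower than those over the genome, and the part of the chromosome in the family's values was not tested.

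Other families of detoxification enzymes were read in the same way. Cytochrome P450 genes, which carry out oxidation before conjugation, had an optimal peak at 4 of 74 (5.41%, interval 2.12 to 13.1) and a pooled region at 34. Short-chain dehydrogenases of the dhs family had an optimal peak at 8 of 30 (26.7%, interval 14.2 to 44.4) and a pooled region at 17. Glutathione S-transferases of the gst family had an optimal peak at 16 of 44 (36.4%, interval 23.8 to 51.1) and a pooled region at 27. Among genes with a pooled region, the share in the optimal list was 11.8% for cyp, 12.9% for ugt, 47.1% for dhs and 59.3% for gst. The differences between families were not tested.

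**Figure D4:**
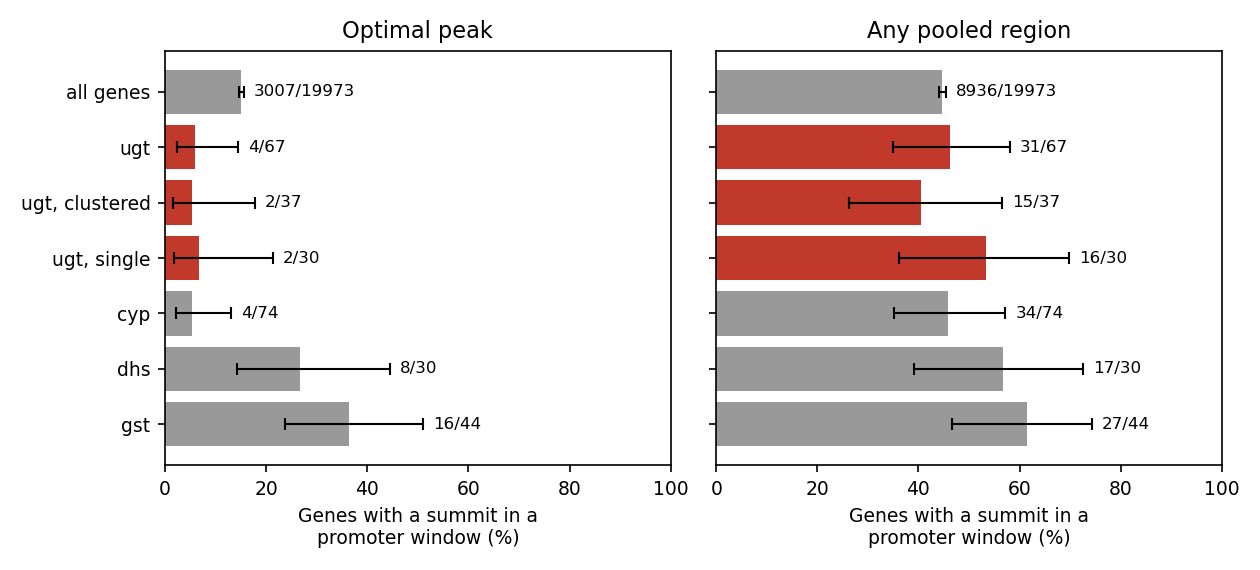
Bars give the percentage of genes with an optimal peak (left) or any pooled region (right) in a promoter window (x axis, %) for all protein-coding genes, for ugt genes as a whole, clustered or single, and for the cyp, dhs and gst families. Lines are Wilson 95% intervals and labels give genes with a region over genes in the set; the ugt bar is at 5.97% on the left, where all genes are at 15.1%, and at 46.3% on the right, where all genes are at 44.7%.

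Genes that supply UDP-sugars, export conjugates or sense xenobiotics were read in the same lists. Of 15 genes that make, carry or use UDP-sugars, 4 had an optimal peak and 12 a pooled region, beside 15.1% and 44.7% of all genes. The gene of the UDP-glucose dehydrogenase, sqv-4, had a pooled region at rank 4242 (4576 in replicate 1 and 6016 in replicate 2) and no optimal peak. The 4 with an optimal peak were uggt-1 (rank 285), which glucosylates unfolded glycoproteins in the ER, the glycosaminoglycan enzymes sqv-3 (rank 287, the peak lying also in the window of the vacuolar ATPase gene vha-1) and sqv-6 (rank 2082), and the glucuronosyltransferase sqv-8 (rank 1516). Of 8 mrp genes, ABC transporters of the type that exports conjugates, 3 had an optimal peak, mrp-2 (rank 21), mrp-1 (rank 1958) and mrp-5 (rank 2798). The first pair lie within the first 3 Mb of X, where regions were dense. Of 5 xenobiotic receptor genes, nhr-48 (rank 1739), nhr-86 (rank 2716) and the aryl hydrocarbon receptor partner aha-1 (rank 1943, the peak lying also in the window of C25A1.15) had an optimal peak, while ahr-1 and nhr-8 had no pooled region. In all, 10 of the 28 genes of these 3 lists had an optimal peak, beside the 15.1% of all genes, and no test was made.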

How the data were processed

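SKN-1 tagged with eGFP was profiled by ChIP-seq in 2 biological replicates of L1 larvae, with fragments of 150 to 350 bp per the labels. The authors deposited region lists in narrowPeak layout. The readme deposited with them derives the list of each replicate from its alignment and 1 further file that both share, the pooled list from both alignments and that file, and the optimal list from these 3 lists by a threshold on the irreproducible discovery rate. The signal value (column 7) is the authors' own, with no normalization stated, and was used only to rank regions within a list. The −log10 q-value, as deposited, was not used to rank or filter. For the caller, aligner, threshold and read depth the sources used here give nothing. The ce10 lists were not used.

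Summits (column 2 plus column 10) were assigned to windows of 1000 bp upstream to 200 bp downstream of every transcript start of Ensembl release 115, counted from 1. Replicate lists were also limited to their 3484 strongest regions. Promoter uniqueness was the percentage of 36-base words that occur at 1 place in the genome. Shares have Wilson 95% intervals. With 1 group there was no comparison between groups and no test. Assignment, motif search and word counting were tested on simulated data. Python 3.11.15, numpy 2.4.6, scipy 1.17.1 and matplotlib 3.10.9 were used.

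The genes named were every ugt gene with an optimal peak or a region among a replicate's strongest, the 10 strongest others, the listed targets ugt-9, ugt-11 and ugt-13, clusters of 5 or more, genes with no region and genes under 90% unique; the 4-gene clusters and the remaining genes with a pooled or replicate region were added after their values were seen. The members, lists, motifs and tests were chosen with earlier results of these data known, and the list of reported targets comes from that earlier analysis and was not checked against the literature.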

Additional observations from a re-analysis of the deposited data

How the results depend on the processing

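The count of 4 ugt genes with an optimal peak stayed at 4, with the same 4 genes, with windows of 500 or 2000 bp upstream, when regions went only to the nearest start and when overlap replaced the summit. With the 1742 strongest optimal peaks alone it was 2 (ugt-13 and ugt-58), 1 clustered and 1 single. With promoters at least 90% unique it was again 2, of 59 genes, 1 clustered and 1 single. To leave out a replicate, the strongest regions of the other replicate's list stood in for the optimal list, and the optimal call was not redone. This gave 5 to 7 genes, 3 clustered and 2 to 4 single, the counts already given for each replicate's strongest regions. The 4 genes were kept in each, which is no separate evidence, since the optimal list was thresholded on agreement between the replicates. The 7 came from replicate 2's regions, without replicate 1. The 22 genes with a region in both full replicate lists fell to 8 when the summits had to lie within 100 bp of each other, a count not made over all genes. In all, 35 of 44 alternative values were within 1.5 times the main one, and these include the counts of optimal peaks that could not change. No paired analysis was possible because there was 1 group. The read depth behind the lists is unknown, so a gene without a region cannot be called unbound.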

Other observations

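The promoters of ugt genes were searched for the same motifs. TGATAA on either strand lay in the 300 bp promoter, from 250 bp upstream to 50 bp downstream of the outermost start, of 46 of 67 ugt genes (68.7%, Wilson 95% interval 56.8 to 78.5) and of 30.2% of all genes. It was in 26 of 30 single genes (86.7%, interval 70.3 to 94.7) and in 20 of 37 clustered ones (54.1%, interval 38.4 to 69.0). The median GC content of these promoters was 32.3% for ugt genes and 34.3% for all genes, and its part in the motif count was not tested. It was held by 2 of the 4 genes with an optimal peak, 19 of the 27 with a pooled region only, 7 of the 8 with a replicate region only and 18 of the 28 without any region.

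The SKN-1 cores TGTCAT or TATCAT lay in the 300 bp promoter of 32 ugt genes (47.8%, interval 36.3 to 59.5) and of 32.3% of all genes. They were in 2 of the 4 genes with an optimal peak, 17 of the 27 with a pooled region only, 6 of the 8 with a replicate region only and 7 of the 28 genes with no region in any list. The 300 bp promoter, here and for TGATAA above, did not cover the peak of ugt-64, with its summit 420 bp inside the outermost start. It also missed the TATCAT of ugt-20, which began 58 bp to the left of a summit 224 bp upstream. All 4 summit windows held a core. The shares were not tested, and TATCAT overlaps TGATAA in part.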
